A study of Mus musculus with 8 samples.

Results

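The genes of 38 coagulation and complement proteins were followed in cultured liver parenchymal cells (primary hepatocytes) of mice that carried or lacked p16, an inhibitor of the cyclin-dependent kinases that open the cell cycle. A gene was used where the array's annotation gave a row exactly 1 symbol equal to its name, and the row of highest mean over the 8 arrays was kept. This held for 34 of the 38 genes, out of 22180 genes named in the same way, and all 34 lay above the limit for dim genes (a mean of 3.32 on the log2 scale) and were among the 15380 genes tested. Klkb1 and Masp2 share their rows with a second gene symbol, and C3 and Cpb2 had no row of their own symbol, so these 4 were not analysed here. The p16-/- group (knockout) and the p16+/+ littermate group (wild type) held 4 cultures each, and each culture was read on 1 array. Hepatocytes of both groups were freed with collagenase, attached in Williams E medium with serum (10% FBS), insulin at 100 nM and dexamethasone at 25 nM, and were held from 16 h in DMEM with 1 mM glucose, 0.1% BSA and penicillin/streptomycin for 8 h, so that RNA was taken at 24 h. The sources used here give neither the design of the deleted allele nor the age or sex of the mice. The labels call the arrays of each group biological replicates 1 to 4, but whether each culture came from its own animal is not given. The p-values therefore measure the spread between these cultures, which may be technical.

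The liver makes most of the proteins that circulate as inactive precursors in plasma and are switched on in chains of proteolysis. Clotting factors lead to thrombin and to a fibrin mesh, serpins and the protein C pathway restrain them, and plasmin dissolves the mesh. Complement is started by pattern recognition or antibody, passes through C3, and ends in a pore built from the terminal components. Hepatocytes are the main source of nearly all of these proteins, while some regulators and receptors of the same pathways are made by endothelial cells and macrophages.

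Most of the genes were higher in hepatocytes without p16. The test (limma over all genes tested, adjusted p under 0.05) called 26 of the 34 genes higher and 1 lower, and left 7 without a call. Here and below, genes said to have risen or fallen are those called higher or lower. Over all genes tested 7.02% were called higher and 6.76% lower. The median log2 change, knockout minus wild type, was 0.47 over the 34 genes and -0.02 over all genes tested. Changes of the 34 genes ran from -0.45 for Pros1 to 1.20 for Serpind1, and 33 of the 34 were above 0. The rises were of modest size, and 2 genes, Serpind1 and F10, reached 2-fold. In 27 genes every knockout array lay above every wild type array, and in 1 gene every one lay below. Over all genes tested the shares of genes with such groups were 9.13% and 11.1%. All 6 terminal complement genes rose, as did 9 of 12 clotting factor genes, 5 of 6 genes of inhibitors and fibrinolysis, and 6 of 10 genes of early complement. Without knockout replicate 1, or without knockout replicate 2, 17 of the genes were called higher, against 26 with all arrays. The median changes in these fits with fewer arrays were 0.44 and 0.47.

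**Figure D1:**
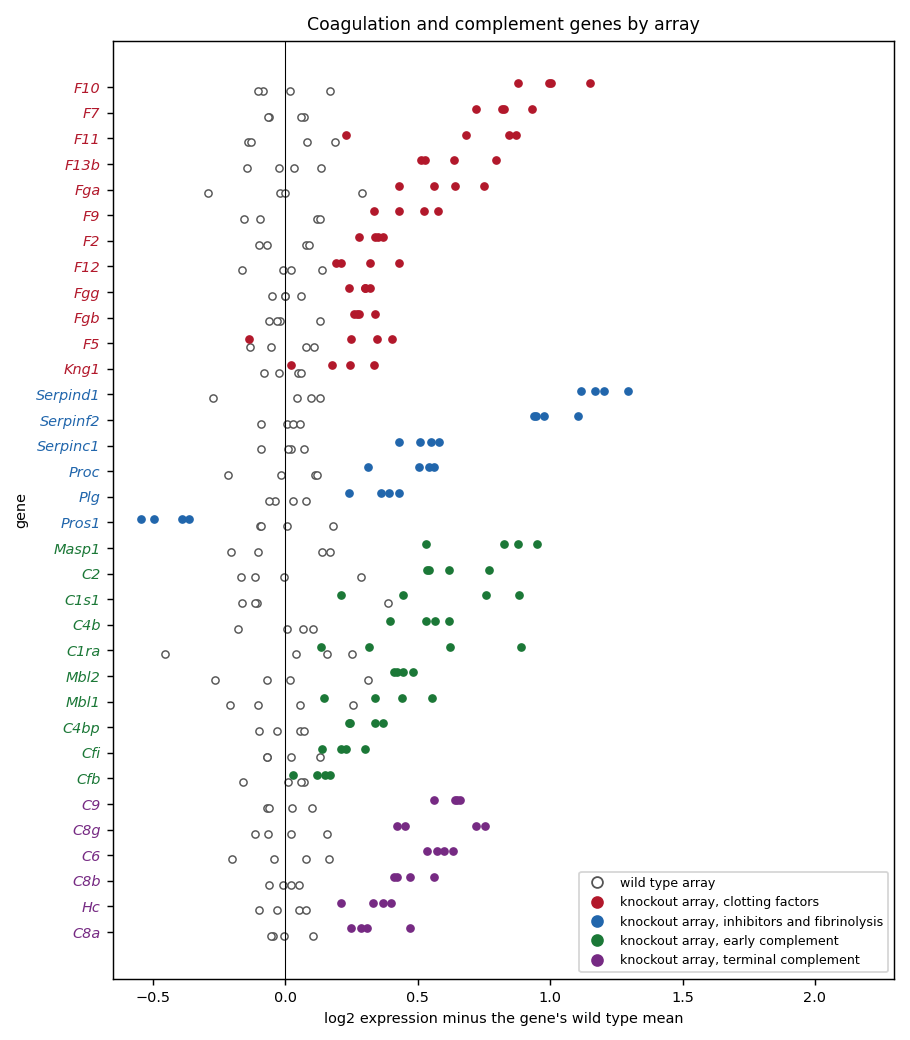
Log2 expression of each gene on each of the 8 arrays, drawn as the difference from that gene's wild type mean (x axis, log2 units). Open circles are wild type arrays, filled circles are knockout arrays coloured by role, and genes are ordered by change within a role. The knockout circles lie to the right of all wild type circles in 27 of the 34 genes and to the left in Pros1.

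The arrays themselves set some limits. Cdkn2a, the gene that encodes p16, was at 4.16, 4.80, 4.48 and 4.68 on the log2 scale in wild type replicates 1 to 4 and at 4.28, 4.66, 4.27 and 4.91 in the knockout, with a change of 0.0040 (95% interval -0.37 to 0.38; two-sided exact permutation p = 1). Which part of the gene this row measures is not given in the sources used here, and it does not check the genotype. Among the knockout arrays, replicate 4 was the lowest for 26 of the 34 genes. Its mean over the 34 genes was 0.38 above the wild type mean, against 0.49 to 0.54 for the other knockout arrays, and its mean over all genes tested was 5.78, against 5.83 to 5.84. Without it 26 of the genes rose, with a median change of 0.52. Among the wild type arrays, replicate 2 was the lowest for 22 of the 34 genes. Its mean over the 34 genes was at -0.08 from the wild type mean, against 0.01 to 0.04 for the other wild type arrays. Its mean over all genes tested was 5.815, against 5.841 to 5.846. Without wild type replicate 2, 19 of the genes rose, with a median change of 0.43. Alb, the hepatocytes' albumin gene, had a wild type mean of 13.54 ± 0.03 (SD, n = 4) and a knockout mean of 13.57 ± 0.01, close to the highest value in the table, 13.65. In the list of hepatocyte markers 10 of 13 tested genes rose and none fell. The mean level of that list was 8.88 to 9.0 on the wild type and 9.86 to 10.02 on the knockout arrays. It was higher in the knockout by 1.00, against 0.48 for the mean level of the 34 genes. Of the sinusoidal endothelial markers 13 of 14 fell and none rose, and their mean level was 5.79 to 5.97 against 4.67 to 4.82, with the cadherin gene Cdh5 changed by -2.03 and Pecam1 by -1.24. Of the Kupffer cell markers 9 of 11 fell and none rose, at mean levels of 4.69 to 4.88 against 3.80 to 3.93, with Adgre1 changed by -0.83 and Clec4f by -0.14 (not called). Of the stellate cell markers 4 of 11 fell and 1 rose, at mean levels of 4.83 to 4.88 against 4.30 to 4.40, with Dcn changed by -2.13 and Lrat by -1.47. The 1 that rose was Reln, by 0.99. The other 6 were not called, and the median change of this list was -0.19. No marker of bile duct cells, lymphocytes, neutrophils or platelets passed the test (4, 5, 2 and 4 tested), nor did the 1 red cell marker tested. Fewer cells of a type and less RNA per cell cannot be told apart in such samples. The part of these marker shifts in the rises above and in the results below was not tested.

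The stretches upstream of 5 of the genes are shown because these genes carry the extremes of the set and 2 chains of 1 protein, fibrinogen, that both rose. They were chosen after the values were seen. They are the 250 bases before the RefSeq start (GRCm38.p6), in the direction of the gene, of Serpind1 (chr16:17331121-17331370, plus strand) and F10 (chr8:13037058-13037307, plus strand), with the 2 rises that reached 2-fold, of the fibrinogen chain genes Fga (chr3:83025903-83026152, plus strand) and Fgb (chr3:83049864-83050113, minus strand), and of Pros1 (chr16:62854057-62854306, plus strand), the 1 gene that fell. Capitals mark matches on either strand to 6 motifs: the HNF1 core motif (GTTAAT), HNF4 (CAAAGTCCA), FOXA (TGTTTNC), C/EBP (TTGCNNAA), STAT (TTCNNNGAA) and E2F (TTTNGCGC).
Serpind1: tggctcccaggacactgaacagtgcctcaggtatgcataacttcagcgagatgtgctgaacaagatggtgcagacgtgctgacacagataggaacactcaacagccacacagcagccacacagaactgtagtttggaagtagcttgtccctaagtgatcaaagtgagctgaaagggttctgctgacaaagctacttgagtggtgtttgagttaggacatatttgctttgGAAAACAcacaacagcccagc
F10: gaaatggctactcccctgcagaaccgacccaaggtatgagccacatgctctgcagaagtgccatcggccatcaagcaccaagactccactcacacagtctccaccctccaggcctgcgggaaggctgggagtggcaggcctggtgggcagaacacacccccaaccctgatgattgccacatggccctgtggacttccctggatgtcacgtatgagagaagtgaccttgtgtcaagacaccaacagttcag
Fga: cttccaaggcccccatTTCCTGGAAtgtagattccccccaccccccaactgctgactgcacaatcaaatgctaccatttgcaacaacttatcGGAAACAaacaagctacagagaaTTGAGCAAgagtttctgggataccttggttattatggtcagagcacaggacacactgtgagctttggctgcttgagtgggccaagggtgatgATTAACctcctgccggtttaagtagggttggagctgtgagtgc
Fgb: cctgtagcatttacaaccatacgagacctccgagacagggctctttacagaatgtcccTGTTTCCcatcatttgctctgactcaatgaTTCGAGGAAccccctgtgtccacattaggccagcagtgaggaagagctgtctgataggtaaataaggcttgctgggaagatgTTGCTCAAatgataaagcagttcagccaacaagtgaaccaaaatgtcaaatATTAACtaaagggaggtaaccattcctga
Pros1: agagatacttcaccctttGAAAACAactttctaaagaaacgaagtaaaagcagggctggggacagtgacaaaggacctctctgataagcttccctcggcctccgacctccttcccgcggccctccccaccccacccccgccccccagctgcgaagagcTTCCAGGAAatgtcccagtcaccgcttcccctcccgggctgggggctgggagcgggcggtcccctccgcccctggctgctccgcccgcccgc
Both fibrinogen stretches shown held 1 match each to the HNF1, FOXA, C/EBP and STAT motifs, and their HNF1 core motifs began 43 (Fga) and 29 (Fgb) bases before the start. The stretch of Fgg, the gene of the remaining fibrinogen chain, which also rose, is not shown. It matched none of these motifs and only the E2F motif. In Serpind1 the 1 match was a FOXA motif 21 bases before the start, Pros1 had a FOXA and a STAT match, and F10 had no match in this window. In Fga the STAT match lay 234 bases before the start, and in Fgb 162 bases before it.

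Of the 34 genes 26 had such a stretch in the RefSeq table, with 28 stretches in all. A gene was counted if any of its stretches matched, while the shares of all were counted per stretch. The HNF1 core motif was present in 8 of these 26 (30.8%), against 6.43% of all 32851 stretches in the table, and the 8 were C1ra, C4bp, C8a, C8b, F13b, Fga, Fgb and Hc. FOXA motifs were present in 10 of 26 (38.5%, against 17.8% of all), C/EBP motifs in 6 (23.1%, against 9.56%) and STAT motifs in 5 (19.2%, against 7.02%). The HNF4 motif was found in 0 of 26 (0.384% of all) and the E2F motif in 1, Fgg (3.85%, against 1.13%). Of the 26 genes 21 had risen, and the other 5 included Pros1. A match of letters is a description of the sequence and not evidence of binding. The factors themselves were measured on the same arrays, with 13 of 15 listed liver transcription factors and interleukin 6 pathway genes tested, of which 3 rose and none fell. Hnf4a, a master regulator of hepatocyte identity, rose by 0.93 (SE 0.12, adjusted p = 3.42e-04), Foxa3 by 0.63 (SE 0.12, adjusted p = 0.00624) and Il6ra, the receptor subunit through which interleukin 6 drives the acute phase response, by 0.97 (SE 0.14, adjusted p = 7.80e-04). Cebpa and Cebpb had changes of -0.08 and 0.08, Stat3 one of 0.29 and Socs3, a feedback target of Stat3, one of 0.16, none of which passed the test.

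Among the clotting factors F10 and F7 had the largest changes. F10 encodes factor X, the protease of the common pathway that makes thrombin, and stood at 8.59, 8.58, 8.70 and 8.85 on the log2 scale in the wild type and at 9.83, 9.68, 9.67 and 9.56 in the knockout arrays. All 4 knockout arrays were above the highest wild type array, and the change of 1.01 (SE 0.10, adjusted p = 5.54e-05) is 2.01-fold. F7 encodes factor VII, which starts clotting together with tissue factor, and stood at 7.43, 7.30, 7.29 and 7.42 in the wild type and at 8.18, 8.29, 8.17 and 8.08 in the knockout. The groups were again apart, with a change of 0.82 (SE 0.09, adjusted p = 9.48e-05), or 1.77-fold. F7, F10 and Proz, the gene of the anticoagulant cofactor protein Z, are adjacent protein-coding genes on chromosome 8, and Proz rose too (0.72, SE 0.09, adjusted p = 3.89e-04). F2, which encodes prothrombin, rose by 0.33 (SE 0.09, adjusted p = 0.0243), from 10.76 ± 0.10 to 11.09 ± 0.04 (SD, n = 4). Its call was lost in 5 of the 8 fits that leave out 1 array, where its adjusted p reached 0.0690. F5, the gene of the cofactor that speeds prothrombin cleavage, was at 8.71, 8.50, 8.74 and 8.58 in the wild type and at 8.98, 9.04, 8.89 and 8.50 in the knockout. Its groups overlapped through knockout replicate 4 alone, and its change of 0.21 (95% interval -0.06 to 0.49) had an adjusted p of 0.311, which became 0.0417 without that array.

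Of the 4 genes of the intrinsic and contact pathways, F9 and F11 rose, and F12 and Kng1 did not pass the test. F11, which encodes factor XI, was at 7.23, 7.24, 7.56 and 7.45 in the wild type and at 8.24, 8.06, 8.22 and 7.60 in the knockout. Knockout replicate 4 lay just above the highest wild type array, and the gene rose by 0.66 (SE 0.15, adjusted p = 0.0119). F9, whose product factor IX is missing in haemophilia B, rose by 0.47 (SE 0.10, adjusted p = 0.0104) with no overlap. F12, which starts the contact pathway, had a change of 0.29 with groups that did not overlap, but an adjusted p of 0.0746. The call for F12 was made in 4 alternative fits (the 60th percentile filter, cyclic loess and both intensity trends), with an adjusted p down to 0.0132. Kng1, the gene of kininogen, the source of bradykinin, had a change of 0.19 (95% interval -0.01 to 0.40, adjusted p = 0.210) and overlapping groups. Kng1 has a close copy, Kng2, with a change of 0.13, and probes may not tell the copies apart.

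The end of the cascade is fibrin. Fga, which encodes the alpha chain of fibrinogen, was at 10.02, 10.29, 10.31 and 10.60 in the wild type and at 10.95, 11.06, 10.87 and 10.74 in the knockout, a rise of 0.60 (SE 0.13, adjusted p = 0.00896). The lowest knockout array stood above the highest wild type array by less than the range within either group. Fgb and Fgg, which encode the beta and gamma chains, rose by 0.28 (SE 0.08, adjusted p = 0.0416) and 0.29 (SE 0.08, adjusted p = 0.0303). Both calls were lost in 6 of the 8 fits without 1 array and in the fit with the replicate block (adjusted p of 0.0671 for Fgb and 0.0524 for Fgg). The 3 chains are adjacent on chromosome 3. F13b, the gene of the carrier subunit of the enzyme that cross-links fibrin, was at 6.68, 6.63, 6.78 and 6.51 in the wild type and at 7.44, 7.16, 7.18 and 7.29 in the knockout, and rose by 0.62 (SE 0.10, adjusted p = 0.00179).

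**Figure D2:**
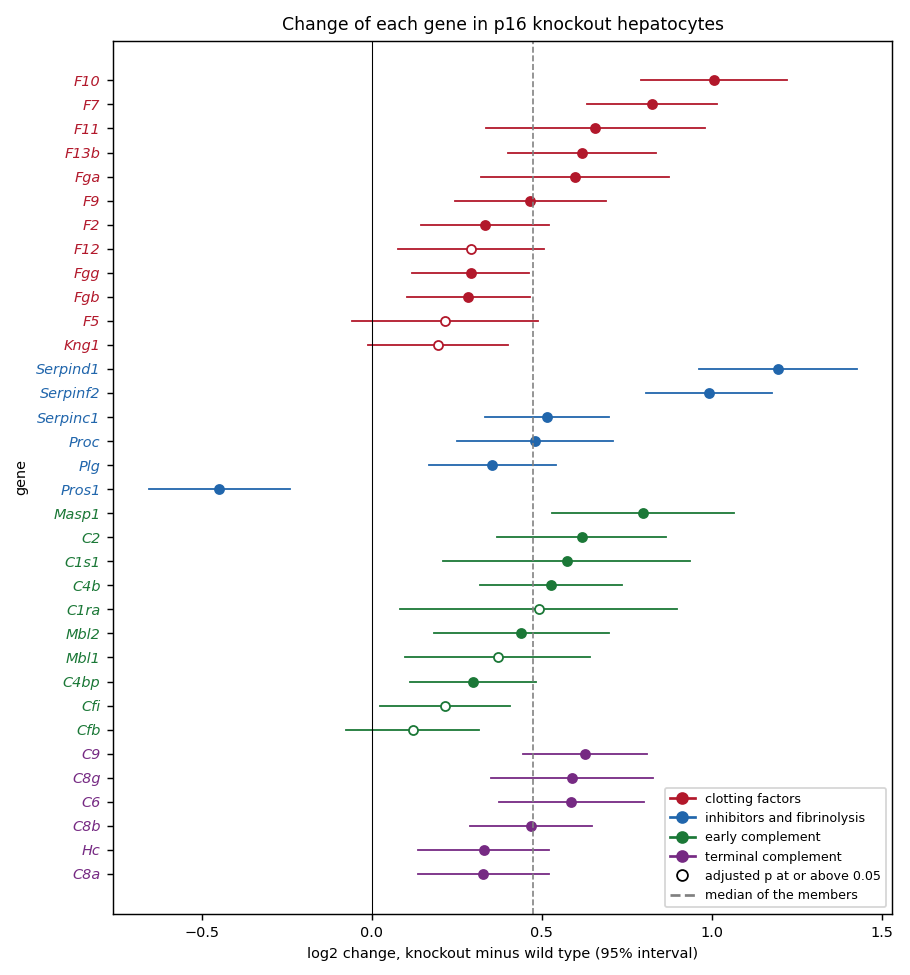
Log2 change of each of the 34 genes, knockout minus wild type (x axis), with limma's 95% interval as a line, filled circles for an adjusted p under 0.05 and open circles otherwise. The dashed line is the median of the genes, 0.47, and Pros1 at -0.45 is the 1 gene whose interval lies wholly below 0.

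The inhibitors held both the largest rise and the only fall of the set. Serpind1 encodes heparin cofactor II, a thrombin inhibitor, and was at 6.69, 6.60, 6.29 and 6.66 in the wild type and at 7.86, 7.76, 7.67 and 7.73 in the knockout. The change of 1.20 (SE 0.11, adjusted p = 2.80e-05) is 2.29-fold, and the lowest knockout array, at 7.67, lay far above the highest wild type array, at 6.69. Serpinf2, which encodes the plasmin inhibitor alpha-2-antiplasmin, was at 8.39, 8.29, 8.41 and 8.44 in the wild type and at 9.33, 9.49, 9.36 and 9.32 in the knockout. It rose by 0.99 (SE 0.08, adjusted p = 2.19e-05), or 1.99-fold, and the lowest knockout array lay well above the highest wild type array. Serpinc1, the gene of antithrombin, rose by 0.52 (SE 0.08, adjusted p = 0.00184), from 10.31 ± 0.07 to 10.83 ± 0.06. Plg, the gene of plasminogen, rose by 0.35 (SE 0.08, adjusted p = 0.0177), a call that was lost in 3 of the 8 fits without 1 array (adjusted p up to 0.0580). Proc encodes protein C, the protease that inactivates activated factors V and VIII. It rose by 0.48 (SE 0.10, adjusted p = 0.0105), from 8.43 ± 0.16 to 8.91 ± 0.11.

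Pros1, which encodes protein S, the cofactor of activated protein C, went the other way. It was at 6.12, 5.85, 5.95 and 5.85 in the wild type and at 5.55, 5.45, 5.58 and 5.40 in the knockout. All knockout arrays were below all wild type arrays, and it fell by 0.45 (SE 0.09, adjusted p = 0.00907), which is 1.36-fold. This fall was called in each of the 19 alternative fits, with an adjusted p of at most 0.0364. Protein S is made by endothelial cells as well as by hepatocytes, and on the same arrays the mean level of the endothelial markers was lower by 1.12. The part of that shift in the fall was not tested.

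Pairs of genes, most of them partners in plasma, were also set side by side within each array. The 12 pairs were chosen after the values were seen, so their differences are given as a description with no test. Serpind1 minus F2, an inhibitor and its target, was higher in the knockout by 0.86 on the log2 scale, Serpinc1 minus F2 by 0.18 and Serpinf2 minus Plg by 0.64. Pros1 minus Proc was lower by 0.93 and Pros1 minus C4bp was lower by 0.75. In these 5 pairs the wild type and knockout arrays did not overlap. For the pairs with Pros1 this follows from the single genes, since Pros1 fell and Proc and C4bp rose, each without overlap. Fga minus Fgb and Fga minus Fgg were higher by 0.31 each, with overlapping groups, and Fgb minus Fgg had a change of -0.0060. C4bp minus C4b and the 3 pairs of C8 chains had changes of -0.26 to -0.12, and the groups overlapped in each of these 4 pairs.

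**Figure D3:**
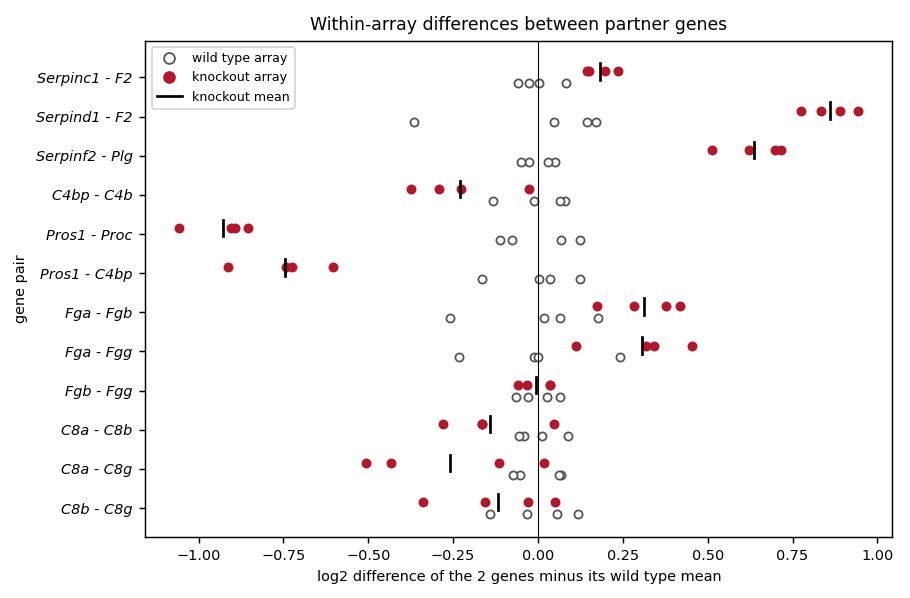
Log2 difference between the 2 genes of a pair on each array, drawn relative to its wild type mean (x axis, log2 units), for 12 pairs. Wild type arrays are open circles, knockout arrays are filled circles and the knockout mean is a bar. Serpind1 minus F2 and Serpinf2 minus Plg lie to the right of the wild type arrays by 0.86 and 0.64 on average, and the 2 pairs with Pros1 lie to the left.

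Early complement comprised the starters of the classical and lectin pathways and the parts of the C3 convertases. Masp1, a protease of the lectin pathway, changed most, from 6.96, 6.59, 6.93 and 6.69 in the wild type to 7.75, 7.62, 7.67 and 7.32 in the knockout. It rose by 0.80 (SE 0.12, adjusted p = 0.00131), or 1.74-fold, without overlap. Mbl2, the gene of a mannose-binding lectin that carries such proteases to microbial sugars, rose by 0.44 (SE 0.12, adjusted p = 0.0288), and its call was lost in 6 of the 8 fits without 1 array. The other mannose-binding lectin gene, Mbl1, had a change of 0.37 with an adjusted p of 0.0727 and overlapping groups. C1ra and C1s1 encode the proteases of the C1 complex. C1s1 rose by 0.57 (SE 0.17, adjusted p = 0.0413), although wild type replicate 2 at 5.65 lay among the knockout values of 5.47 to 6.14, and the call was lost with the mean of its 2 rows (0.49, adjusted p = 0.0893) and in 6 fits without 1 array. C1ra had a change of 0.49 (95% interval 0.08 to 0.90) with an adjusted p of 0.111. Both genes have near copies, and the row of C1rb had a change of 0.33, so the share of each copy is uncertain.

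C2 and C4b, which form the C3 convertase of the classical and lectin pathways, rose together. C2 was at 6.03, 5.87, 6.32 and 5.92 in the wild type and at 6.58, 6.65, 6.80 and 6.57 in the knockout, a rise of 0.62 (SE 0.11, adjusted p = 0.00404). C4b rose by 0.53 (SE 0.10, adjusted p = 0.00367), from 9.39 ± 0.13 to 9.92 ± 0.10, and the row of its copy C4a was dim (mean 3.14) and was not tested. Cfb encodes factor B, the counterpart of C2 in the alternative pathway, and is adjacent to C2 on chromosome 17. Cfb was at 10.49, 10.26, 10.48 and 10.43 in the wild type and at 10.57, 10.54, 10.59 and 10.45 in the knockout, with overlapping groups and a change of 0.12 (95% interval -0.07 to 0.32, adjusted p = 0.435). The difference between the changes of C2 and Cfb was not tested. Of the regulators, C4bp, which holds C4b in check, rose by 0.30 (SE 0.08, adjusted p = 0.0381), a call that was lost in each of the 8 fits without 1 array (adjusted p 0.052 to 0.0997). Cfi, the gene of the protease that cuts C3b and C4b, had a change of 0.22 (adjusted p = 0.134), with groups that did not overlap.

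The terminal components rose together, in 6 of 6 genes and without overlap in each. C9, the pore-forming unit, was at 10.00, 9.83, 9.93 and 9.84 in the wild type and at 10.46, 10.54, 10.55 and 10.57 in the knockout. The knockout arrays lay close together and above all wild type arrays, and the rise of 0.63 (SE 0.08, adjusted p = 5.36e-04) is 1.54-fold. C6, which joins C5b at the start of the pore, was at 7.56, 7.19, 7.47 and 7.35 in the wild type and at 7.99, 8.02, 7.96 and 7.93 in the knockout, and rose by 0.59 (SE 0.10, adjusted p = 0.00218). The 3 chains of C8 rose by 0.59 (C8g, adjusted p = 0.00415), 0.47 (C8b, adjusted p = 0.00292) and 0.33 (C8a, adjusted p = 0.0296). C8a and C8b are adjacent on chromosome 4. Hc, the mouse gene of C5, rose by 0.33 (SE 0.09, adjusted p = 0.0284). The calls for C8a and Hc were each lost in 6 of the 8 fits without 1 array, with adjusted p-values up to 0.091 and 0.0827, and that for C8a also with the replicate block (adjusted p = 0.0521).

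Other genes of the same pathways, 59 in number and listed by function, did not move as one. Among the 51 tested, 10 were called higher, 12 lower and 29 neither, and the median change was -0.15. Genes of plasma proteins were among the rises. The anticoagulant serpin gene Serpina10 rose by 0.73 (SE 0.09, adjusted p = 3.88e-04), the histidine-rich glycoprotein gene Hrg by 0.67 (adjusted p = 0.00474), and the protease inhibitor gene A2m by 0.60 (adjusted p = 0.0182). Of the 8 tested plasma protease inhibitors and related proteins 4 rose and none fell. C1rl, which encodes a relative of C1r and lies beside C1ra on chromosome 6, rose by 0.73 (SE 0.09, adjusted p = 3.47e-04), and Cpn2, a subunit of the carboxypeptidase that inactivates anaphylatoxins, by 0.77 from a dim wild type mean of 3.64. Vkorc1, which recycles vitamin K for the carboxylation of the clotting factors, rose by 0.64 (SE 0.11, adjusted p = 0.00303), while the carboxylase gene Ggcx had a change of 0.25 (adjusted p = 0.0998). F3, the gene of tissue factor, rose by 0.68 (SE 0.11, adjusted p = 0.00232).

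Of the 7 tested complement receptor genes 4 fell and none rose. Cd93 fell by 1.40 (SE 0.21, adjusted p = 0.00106), the C3a receptor gene C3ar1 by 1.04 (adjusted p = 6.16e-04), Vsig4 by 0.82 (adjusted p = 0.00435) and the integrin gene Itgam by 0.70 (adjusted p = 0.00113). The knockout means of C3ar1 (3.30), Vsig4 (3.00) and Itgam (3.22) lay below the limit for dim genes, 3.32. These genes passed that limit only through their wild type means of 4.34, 3.82 and 3.93. The 3 chains of C1q, the antibody-binding part of the C1 complex, fell by 1.37 (C1qb), 0.70 (C1qc) and 0.38 (C1qa), with adjusted p-values of 3.74e-04, 0.00310 and 0.0287, and they lie next to each other on chromosome 4. The call for C1qa was lost in 7 of the alternative fits, with an adjusted p up to 0.0802. Tfpi, which blocks tissue factor and is a product of endothelial cells, fell by 0.62 (SE 0.11, adjusted p = 0.00406). Of the 7 tested genes of plasminogen activation 4 fell and none rose. The urokinase receptor gene Plaur fell by 0.58 (adjusted p = 0.00419), a call kept in all 19 alternative fits, and Anxa2 fell by 0.35 (adjusted p = 0.0177), a call lost in 3 of them. The urokinase gene Plau and the plasminogen receptor gene Plgrkt fell by 0.50 and 0.47 (adjusted p = 0.0440 and 0.0451), and each of these calls was lost in 11 of the alternative fits, with an adjusted p up to 0.119 and 0.111. C1q and the complement receptors are known as products of macrophages and other non-parenchymal cells. On the same arrays the mean levels of Kupffer cell and endothelial markers were lower by 0.91 and 1.12, and Vsig4 is itself one of the Kupffer cell markers. The part of these shifts in the falls was not tested.

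**Figure D4:**
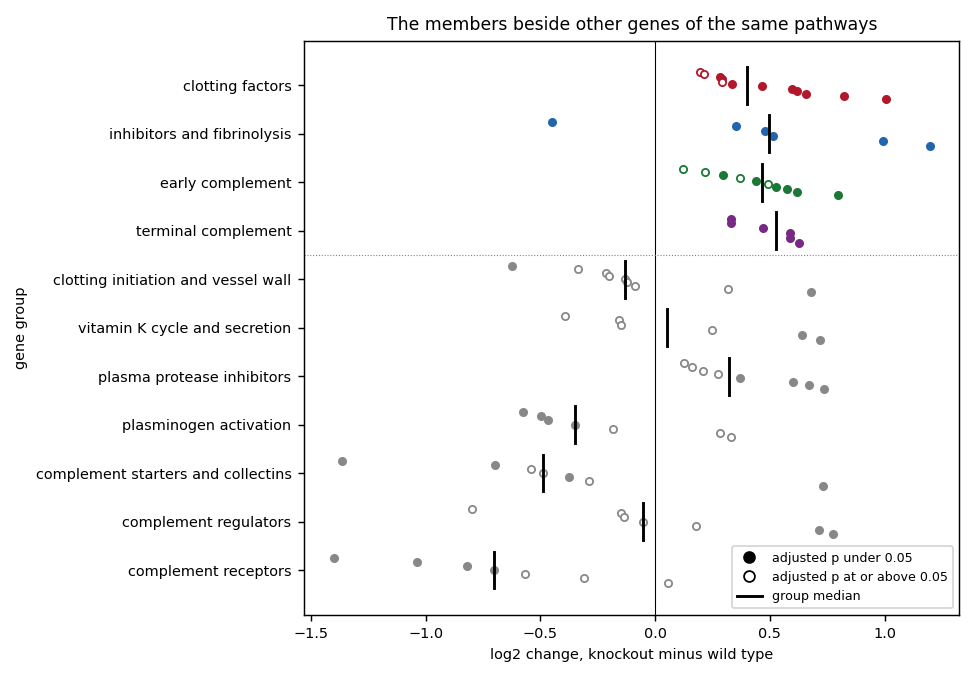
Log2 changes, knockout minus wild type (x axis), of the 34 genes by role (above the dotted line) and of the 51 other tested pathway genes by function (below it), with filled circles for an adjusted p under 0.05 and bars for group medians. The medians of the upper groups lie between 0.40 and 0.53, and those of complement receptors and of complement starters and collectins at -0.70 and -0.49.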

How the data were processed

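Total RNA of 8 hepatocyte cultures was hybridised, biotin-labelled, to Affymetrix gene arrays. The authors deposited log2 expression values, 41345 rows by 8 arrays, made by RMA with the oligo package per the submitters' processing notes. Versions and genome build: not given in the sources used here. Normalization by RMA gives all arrays like distributions and so hides any shift common to the whole array. The deposited values were used as given. Rows were named from the platform annotation (23521 with 1 symbol, 1814 with several, 16010 with none), and 23328 of the former matched RefSeq (GRCm38.p6).

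Genes with a mean above the 40th percentile of row means entered limma 3.58.1 (R 4.3.3; lmFit, then eBayes without a trend; 6 residual degrees of freedom), and p-values were adjusted by Benjamini-Hochberg over the 15380 genes; SE is limma's moderated standard error and tests are two-sided. The fit was tested on simulated data. The exact permutation test of Cdkn2a, over 70 arrangements, used scipy 1.17.1 in Python 3.11.15. Alternatives were other filters, row rules, scalings, variance models, array weights, the replicate block, a stricter threshold and leaving out each array. Arrays have no read depth, and 4 arrays per group limit the precision. The genes named are all members, the called genes of the other pathway and regulator lists (at most 8 of smallest p per direction for the former), and defining cell type markers. Other names (Cebpa, Cebpb, Stat3, Socs3, Ggcx, Kng2, C1rb, C4a, C1qa, Plau, Plgrkt, Anxa2, Reln) were added after their values were seen. The members and lists were chosen with earlier results of these data known.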

Additional observations from a re-analysis of the deposited data

Results flagged for a closer look

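Among 130 sets of 4 arrays of the genes named, 3 had 1 array set apart from the other arrays of its group by more of the group's range than Dixon's 95% critical value, a criterion that chance meets in about 1 of 20 sets. C1s1 was at 5.65 in wild type replicate 2, while the other wild type arrays were at 5.10 to 5.16. Il6ra was at 7.08 in wild type replicate 1, against 7.29 to 7.32. Ttr, the transthyretin gene, was at 12.95 in knockout replicate 1, against 12.98 on the other knockout arrays, a gap of little size.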

How the results depend on the processing

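None of the 34 genes changed direction in the 19 alternative fits. Of the 27 called genes 18 kept their call in all of them. The other 9 (F2, Fgb, Fgg, Plg, C1s1, Mbl2, C4bp, Hc and C8a) lost it in some, each time including fits without 1 array, which have fewer samples. All of them except F2 and Plg also lost it with all arrays and no filter on dim genes. Fgb and Fgg lost it with repeated quantile normalization too, where their changes were 0.20 and 0.21. F5, F12, C1ra, Mbl1 and Cfi gained a call in some fits. The number of genes that rose was 17 to 26 when 1 array was left out and 14 at a threshold of 0.01. With all arrays it was 19 without a filter on dim genes, 23 with the filter at the 20th percentile and 28 at the 60th. The 1 fall was kept throughout. The median change of the 34 genes stayed between 0.43 and 0.53. Other pathway genes that rose numbered 8 to 10 and those that fell 9 to 13 when 1 array was left out. With all arrays they numbered 10 and 12, with median centring 10 and 8, which turns the balance, with either intensity trend 11 and 18, and at a threshold of 0.01 they numbered 7 and 8. Over all genes, 1080 rose and 1039 fell; without 1 array these were 765 to 1238 and 654 to 992, at a threshold of 0.01 they were 592 and 479, and with median centring 1066 and 640, a shift of the balance whose cause was not tested. Alb, not called, changed by -0.0092 with cyclic loess and Cd3e, not called, by -0.13 to 0.023 when 1 array was left out (0.023 without knockout replicate 2), in these cases opposite in sign to the main values. The labels give both groups replicate numbers 1 to 4 but state no pairing, and the main fit did not take the numbers as pairs. Deviations of same-numbered arrays correlated at 0.020 to 0.26, and those of arrays with different numbers at -0.29 to 0.15. Of the 8 arrays 4 correlated best with their own number, which does not settle whether the numbers are pairs. With the replicate block 23 of the genes rose and 1 fell, and over all genes 1082 rose and 1133 fell. Precision is limited by 4 arrays per group.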
